A study of Homo sapiens with 33 samples.

Results

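The BCL2 family genes followed here are 10 regulators of mitochondrial apoptosis. They are the antiapoptotic genes BCL2, BCL2L1, BCL2A1 and MCL1, and the BH3-only genes BCL2L11, PMAIP1, BBC3, BMF, BIK and HRK. The genes were chosen by name, with earlier results of these data known, and all of their probe sets were taken. A probe set is the group of array probes that gives 1 expression value for a transcript. Of the 10 genes, 9 had probe sets annotated to them alone, 31 probe sets among the 54613 tested, 15 of antiapoptotic and 16 of BH3-only genes. The 1 probe set of BBC3 also carries the names of other genes, so BBC3 is not analysed here.

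Antiapoptotic BCL2 proteins hold the pore-forming effectors BAX and BAK1 inactive at the outer mitochondrial membrane. BH3-only proteins bind the antiapoptotic proteins, and some of them also activate BAX and BAK1 directly, so that the balance between these classes sets whether the membrane opens and caspases are activated. In germinal centre B cells and the lymphomas derived from them, this balance is known to be set partly by transcription.

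Karpas422 is a human diffuse large B cell lymphoma line, described in the study's title as EZH2 mutant. EZH2 is the catalytic subunit of Polycomb repressive complex 2 (PRC2), which places the repressive H3K27 methyl mark, and EED226 is an allosteric inhibitor that binds the complex's EED subunit. Cells were given EED226 at 5 µM, or the solvent DMSO, for 8 h or for the 1, 2, 3 or 6 days of the study's design text (the sample titles give hours), and cells at 0 h were also measured, with 3 arrays in each of 11 groups. The groups follow the sample titles, which name EED226, although the design text calls the drug an EZH2 inhibitor and the treatment protocol also mentions EI1. The design text describes the replicates as biological triplicates. All groups are 1 cell line at 1 dose, and how the cells at 0 h were handled is not given in the sources used here. The values come from RNA of whole cultures, so a change in some of the cells and a smaller change in all of them cannot be told apart.

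Expression is given as the deposited log2 values, on which a difference of 1 is a 2-fold difference. Arrays of a group correlated with r between 0.994 and 0.997, except DMSO day 6 replicate 3. On that array 326 of 19775 genes lay at least 1 log2 unit away from both other arrays of its group, against 24 genes on DMSO day 3 replicate 3 and 0 to 15 genes on each of the others. Results at day 6 were therefore also computed without DMSO day 6 replicate 3, and results at day 3 without DMSO day 3 replicate 3 where this changes a call. The control probes for RNA integrity also moved with the groups. The ACTB 3' minus 5' difference was 3.50 to 4.14 on the EED226 day 6 arrays, against 2.87 to 3.29 on the DMSO day 6 arrays. On the other groups it was 2.79 to 3.74, which overlapped both. The GAPDH 3' minus 5' difference was 0.524 to 0.737 on the EED226 day 6 arrays, against 0.235 to 0.285 on the DMSO day 6 arrays and at most 0.435 on the others, so this measure separated EED226 day 6 from all other groups. It was 0.303 to 0.435 on the EED226 day 3 arrays, against 0.231 to 0.244 on the DMSO day 3 arrays. As its values at day 6 do not overlap between the groups, it and the treatment cannot be fully told apart there. Both measures were added to the fit in turn as a covariate, alternatives chosen after seeing the data.

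The cell identity was checked against marker lists. None of the 5 measured B cell markers had a group mean below the lowest array median, 4.06. Their summed level, on the log2 scale, was 13.85 to 13.96 on the EED226 day 6 arrays and 13.28 to 13.52 on the DMSO day 6 arrays. CD79B, a signalling chain of the B cell receptor, was at 11.40 ± 0.08 with EED226 and 10.32 ± 0.17 with DMSO, and the B cell lectin CD22 at 9.005 ± 0.13 with EED226 and 8.17 ± 0.27 with DMSO (SD, n = 3). The T and NK cell markers summed to 7.98 to 8.71 with EED226 and 9.07 to 9.35 with DMSO at day 6, with 3 of 5 genes below that median in each group. This sum rested mostly on CD3D, a T cell receptor component, at 8.09 ± 0.42 with EED226 and 9.04 ± 0.15 with DMSO (SD, n = 3), and GNLY was dim in both groups, with means of 3.76 and 4.05. The myeloid markers summed to 6.17 to 6.42 with EED226 and 5.57 to 5.74 with DMSO, with 4 and 5 of 5 genes below the median, and LYZ (lysozyme) was at 5.50 ± 0.24 with EED226 and 3.22 ± 0.16 with DMSO (SD, n = 3), while S100A8 had means of 2.75 and 3.21. The other probe set of LYZ had a day 6 difference of the opposite sign. The epithelial and stromal markers summed to 6.64 to 6.88 with EED226 and 6.999 to 7.90 with DMSO, with 3 and 2 of 5 genes below the median. Of these, COL1A1 had means of 5.76 with EED226 and 6.56 with DMSO, and KRT18 4.63 and 4.90. The part of other cells in the results was not tested.

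The promoter sequences of BCL2A1 and PMAIP1 are shown because these genes had the largest differences, and that of BCL2L11 because its probe sets disagreed and because FOXO factors, known to act on it, were measured as well. Each is the 250 bases before the gene's start in RefSeq's table for GRCh38.p14, read in the gene's direction. The BCL2A1 window is chr15:79971197-79971446 on the minus strand, that of PMAIP1 chr18:59899746-59899995 on the plus strand and that of BCL2L11 chr2:111120664-111120913 on the plus strand. Capitals mark matches to motifs searched on both strands.
BCL2A1: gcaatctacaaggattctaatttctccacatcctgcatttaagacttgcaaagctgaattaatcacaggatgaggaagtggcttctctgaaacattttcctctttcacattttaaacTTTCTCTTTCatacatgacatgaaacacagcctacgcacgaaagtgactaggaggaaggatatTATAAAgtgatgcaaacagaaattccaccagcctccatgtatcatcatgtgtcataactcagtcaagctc
PMAIP1: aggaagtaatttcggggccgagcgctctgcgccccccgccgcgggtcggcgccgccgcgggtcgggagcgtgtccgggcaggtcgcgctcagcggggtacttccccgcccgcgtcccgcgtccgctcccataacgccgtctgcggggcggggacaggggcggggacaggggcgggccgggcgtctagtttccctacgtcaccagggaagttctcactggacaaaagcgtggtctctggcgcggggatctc
BCL2L11: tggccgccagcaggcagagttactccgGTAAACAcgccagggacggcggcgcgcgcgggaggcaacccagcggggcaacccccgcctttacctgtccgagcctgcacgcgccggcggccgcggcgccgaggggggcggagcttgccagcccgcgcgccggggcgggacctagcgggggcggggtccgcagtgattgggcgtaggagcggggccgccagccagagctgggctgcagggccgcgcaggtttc

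These promoters differed in base composition. The BCL2A1 window held 2 CG dinucleotides and 38.8% G and C bases, against 36 and 72.8% for PMAIP1 and 34 and 76.8% for BCL2L11, and against medians of 11 CG and 58% over 35116 promoters. The BCL2A1 window held fewer CG than most promoters, as only 14.7% of promoters had fewer, whereas 95.1% had fewer than PMAIP1 and 93.2% fewer than BCL2L11. The capitals in BCL2A1 are a TATA box (TATAAA, found in 10.7% of promoter windows), 70 to 65 bases before the start, and TTTCTCTTTC, 133 to 124 bases before the start. That sequence is the reverse complement form of the interferon response element core GAAANNGAAA, which 3.02% of promoter windows hold. The capitals in BCL2L11 are the FOXO element GTAAACA, 223 to 217 bases before the start, which 2.98% of windows hold. The other motif searched was an NF-kB element (GGGNNTTTCC, in 1.73% of windows), which was not found in these 3 windows. None of the motifs overlaps another here. A match is a description of the letters and not a measured binding site. MCL1 and BIK are named without a promoter.

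At day 6 of EED226, 5 of the 9 measured genes were higher than in DMSO and none was called lower. PMAIP1 was 13.6-fold, BCL2A1 10.02-fold, BIK 3.10-fold and MCL1 2.08-fold higher, and BCL2L11 was 1.33-fold higher on its brightest probe set but lower on others. The DMSO values of BCL2A1 and BIK lay below the lowest array median, so the sizes of those folds are uncertain. Antiapoptotic and BH3-only genes were both among them, 2 of 4 and 3 of 5. The background was wide at this time, since 48.6% of all 19775 genes passed the test in either direction, 23.1% higher and 25.5% lower. The members' median log2 difference was 0.64 for antiapoptotic and 0.41 for BH3-only genes, beside -0.11 for all genes. The 0.41 is the value of BCL2L11, whose sign depends on the probe set. Over all probe sets of the members the medians were 0.11 for antiapoptotic and 0.009 for BH3-only genes, beside -0.08 for all probe sets. A change of at least 2-fold that passed the test was found for 4 of the 9 genes and for 11% of all genes. Tests were made with limma. A gene was represented by its brightest probe set over all arrays and passed when its Benjamini-Hochberg adjusted p over all 54613 probe sets was under 0.05. The same 5 genes passed without DMSO day 6 replicate 3 and with the ACTB covariate. With the GAPDH covariate 4 passed, and BCL2L11 did not (0.12, adjusted p = 0.736).

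Earlier, fewer members had changed. At 8 h and on days 1 and 2, 0 of 9 genes passed limma's test, where 0%, 0.506% and 7.19% of all genes did. At day 3, 3 genes passed, BCL2A1 and MCL1 higher and HRK lower, against 20.2% of all genes. Over all times together, an F test on the 5 differences called 6 of the 9 genes and 38.1% of all genes. The 3 genes it did not call were BCL2, BCL2L1 and BMF.

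**Figure D1:**
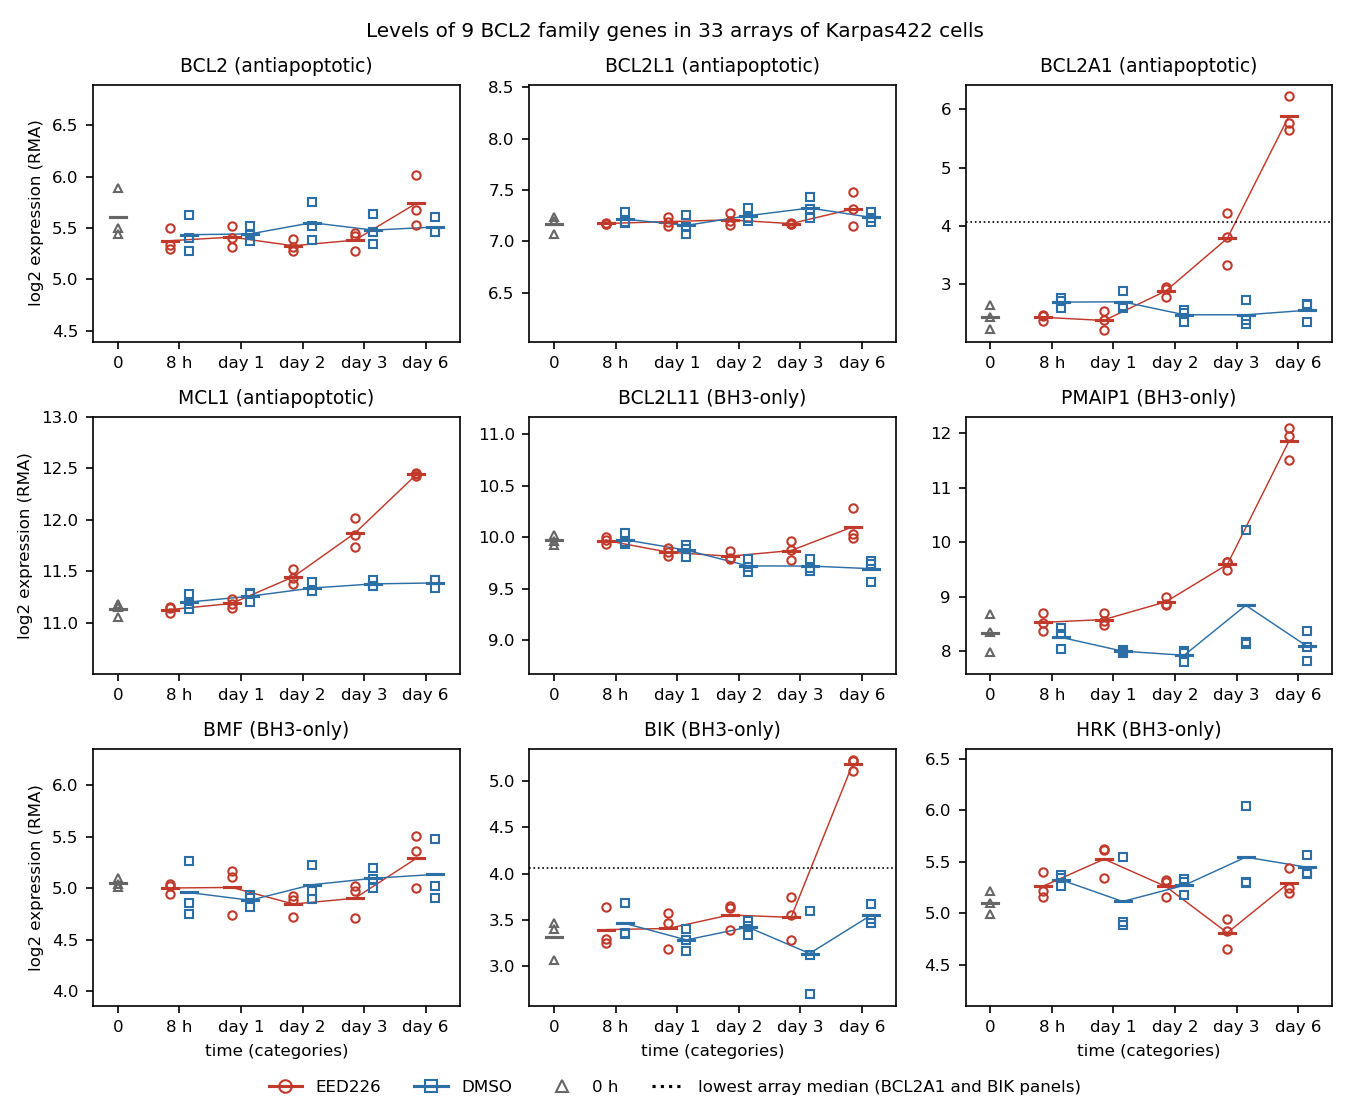
Log2 expression of the brightest probe set of 9 BCL2 family genes (vertical axes, each spanning its own range) against time as categories, with each array as a point, EED226 as circles to the left of DMSO squares, 0 h as triangles, and bars for group means. BCL2A1, MCL1, BCL2L11, PMAIP1 and BIK with EED226 lie above all DMSO day 6 arrays at day 6. Groups did not overlap at day 6, in either direction, for 5 of the 9 genes and for 51.7% of all genes. For PMAIP1, 1 DMSO day 3 array, at 10.23, stands above the rest of its group.

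Among the antiapoptotic genes, BCL2A1 changed most. BCL2A1 encodes the short-lived protein A1 (BFL-1), a known target of NF-kB in lymphocytes. Its level was 5.77, 5.65 and 6.22 on the EED226 day 6 arrays, against 2.66, 2.36 and 2.65 on the DMSO day 6 arrays. The groups did not overlap, and the difference was 3.32 ± 0.16 log2 units (SE, n = 3 arrays each, limma adjusted p = 1.33e-15), or 10.02-fold. At day 3 it had 3.33, 3.80 and 4.23 with EED226 and 2.72, 2.32 and 2.39 with DMSO, a difference of 1.31 ± 0.16 (adjusted p = 9.38e-07). At day 2 all 3 EED226 arrays, at 2.91, 2.95 and 2.79, were above the DMSO arrays, at 2.57, 2.36 and 2.51, but the difference of 0.41 ± 0.16 did not pass (adjusted p = 0.196). At 8 h and day 1 the differences were -0.26 ± 0.16 and -0.32 ± 0.16 and did not pass. In the 18 arrays at 0 h or with DMSO, BCL2A1 lay between 2.24 and 2.88, below the lowest array median of 4.06. Values this dim carry little signal over background, so the size of the fold is uncertain, while all EED226 arrays at days 3 and 6 lay above all DMSO arrays of the same time. Groups did not overlap, in either direction, for 30.2%, 36.8% and 51.7% of all genes at days 2, 3 and 6.

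MCL1, which encodes a labile antiapoptotic protein that many B cell tumours need, was higher by 1.06 ± 0.07 log2 units at day 6 (SE, n = 3, limma adjusted p = 4.61e-13). Its levels were 12.45, 12.45 and 12.43 with EED226 and 11.41, 11.41 and 11.34 with DMSO. The EED226 means were 11.13, 11.19, 11.45, 11.87 and 12.44 at 8 h and days 1, 2, 3 and 6, and the DMSO means 11.20, 11.26, 11.34, 11.38 and 11.39. The difference passed the test at day 3 (0.49 ± 0.07, adjusted p = 5.99e-06) and day 6. These values are of probe set 200797_s_at. Of the other 5 probe sets of MCL1, 214057_at was also higher, by 0.92 ± 0.12 (adjusted p = 1.81e-07), and 4 did not pass, with differences between -0.07 and 0.11. One of these 4, 200798_x_at, is a probe set marked as able to match other transcripts, and its difference was 0.11 ± 0.07 (adjusted p = 0.205). With the mean of all MCL1 probe sets the day 6 difference was 0.36 and the day 3 difference 0.12 (adjusted p = 0.356). At day 3, 214057_at was also called higher, by 0.37, and the 4 others did not pass. The day 3 call of 214057_at was lost without DMSO day 3 replicate 3 (0.38, adjusted p = 0.0588), replicate 1 (0.35, adjusted p = 0.101) or replicate 2 (0.37, adjusted p = 0.0747). It was also lost without EED226 day 3 replicate 1 (0.32, adjusted p = 0.127) or replicate 3 (0.32, adjusted p = 0.136), and with the GAPDH covariate (0.37, adjusted p = 0.103).

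BCL2, the founding member and an oncogene in follicular lymphoma, did not pass on its brightest probe set 207004_at. It had 5.68, 6.02 and 5.52 with EED226 and 5.46, 5.46 and 5.61 with DMSO at day 6, and the groups overlapped (difference 0.23 ± 0.12, SE, n = 3, limma adjusted p = 0.14). Its other probe sets disagreed. At day 6, 207005_s_at was higher by 0.71 ± 0.16 (adjusted p = 6.26e-04) and 203685_at by 1.01 ± 0.18 (adjusted p = 3.15e-05). The second of these was dim, at 3.38, 4.20 and 3.17 with EED226 and 2.50, 2.57 and 2.63 with DMSO. In contrast 203684_s_at, also dim with means of 3.74 with EED226 and 4.14 with DMSO, was lower, at -0.40 ± 0.12 (adjusted p = 0.00757). That call was lost without DMSO day 6 replicate 3 (-0.25, adjusted p = 0.101), without EED226 day 6 replicate 3 (adjusted p = 0.0604), with the ACTB covariate (adjusted p = 0.109) and when fitting only the EED226 and DMSO day 6 arrays (adjusted p = 0.115). With the GAPDH covariate no BCL2 probe set passed. The mean of the 4 probe sets gave 0.39 (adjusted p = 0.00142), so the call for BCL2 depends on the probe set.

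BCL2L1, which encodes BCL-xL, did not pass at any of the 5 times on its brightest probe set. It had 7.31, 7.48 and 7.15 with EED226 and 7.23, 7.28 and 7.19 with DMSO at day 6, and all 4 of its probe sets had differences between -0.11 and 0.14 that did not pass. Without DMSO day 6 replicate 3 these ran between -0.31 and 0.23 and did not pass, and with repeated quantile normalization 231228_at passed as lower (-0.33, adjusted p = 0.0382). For the brightest probe set the difference was 0.08 ± 0.08 (SE, n = 3, limma adjusted p = 0.415). Over all 11 groups the BCL2L1 group means ranged only between 7.16 and 7.32.

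**Figure D2:**
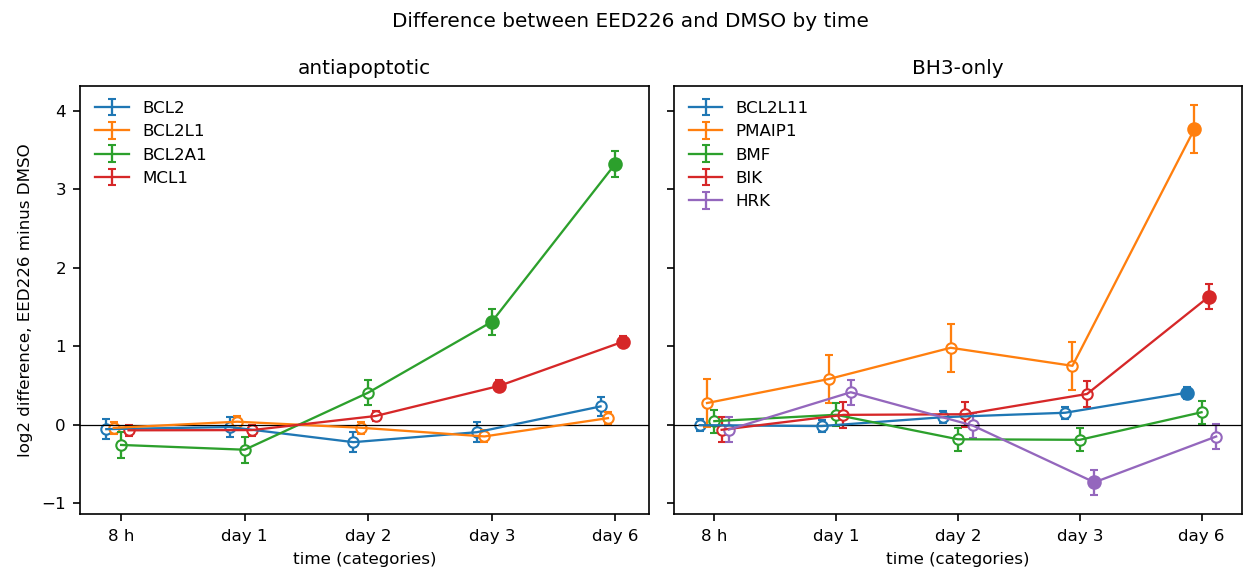
Log2 difference, EED226 minus DMSO (vertical axis), of the brightest probe set of each gene against time as categories, antiapoptotic genes left and BH3-only genes right, with bars for the limma SE and filled points where the adjusted p was under 0.05. The called differences at day 6 run between 0.41 for BCL2L11 and 3.76 for PMAIP1, and HRK at day 3 is the 1 called difference below 0.

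Among the BH3-only genes, PMAIP1 had the largest difference. PMAIP1 encodes NOXA, which binds MCL1 and A1 and promotes the degradation of MCL1. Its level was 12.09, 11.95 and 11.52 on the EED226 day 6 arrays and 8.37, 8.08 and 7.82 on the DMSO day 6 arrays. The difference was 3.76 ± 0.30 log2 units (SE, n = 3, limma adjusted p = 3.44e-11), or 13.6-fold, and ranked 68 of 19775 genes counted from the largest rise. The other probe set, 204286_s_at, had 11.38, 11.12 and 11.02 with EED226 and 7.34, 7.27 and 7.12 with DMSO, a difference of 3.93 ± 0.31 (adjusted p = 1.97e-11). Without DMSO day 6 replicate 3 the brightest probe set differed by 3.63 (adjusted p = 1.05e-09).

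At day 3 the result for PMAIP1 rested on 1 array. The level was 9.64, 9.64 and 9.50 with EED226, against 8.17, 8.13 and 10.23 with DMSO, so DMSO replicate 3 was above all EED226 arrays. With all arrays the difference was 0.75 ± 0.30 (adjusted p = 0.11), and without that array it was 1.44 (adjusted p = 5.67e-07). The second probe set, 204286_s_at, showed the same array apart, at 9.36 against 7.07 and 7.12 on the other DMSO day 3 arrays, but passed with all arrays (0.98 ± 0.31, adjusted p = 0.031). Its difference was 1.73 without DMSO replicate 3 (adjusted p = 7.19e-11), and the call was lost without DMSO replicate 1 (0.59, adjusted p = 0.289) or DMSO replicate 2 (0.61, adjusted p = 0.267). It was also lost without EED226 day 3 replicate 1, 2 or 3 (adjusted p = 0.065, 0.0688 and 0.0951). Fitting only the day 3 arrays (adjusted p = 0.299) and trended and robust eBayes (adjusted p = 0.0513) lost it too, as did the ACTB (adjusted p = 0.0544) and GAPDH (adjusted p = 0.107) covariates. At days 1 and 2 all EED226 arrays lay above all DMSO arrays, by 0.58 ± 0.30 and 0.98 ± 0.30 on average, but neither difference passed (limma adjusted p = 0.958 and 0.0649). Groups did not overlap, in either direction, for 2 of the 9 genes at each of these times. The share over all genes was 13.6% at day 1 and 30.2% at day 2. The day 2 difference passed when only the 6 arrays of that time were fitted (adjusted p = 7.02e-04), where DMSO day 3 replicate 3 does not add to the spread. Across these times the EED226 means were 8.53, 8.58, 8.91, 9.59 and 11.85 at 8 h and days 1, 2, 3 and 6.

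BIK, a BH3-only gene of the endoplasmic reticulum first described as a BCL2 interacting killer, was higher at day 6 only among the times tested. Its levels were 5.22, 5.11 and 5.22 with EED226 and 3.68, 3.51 and 3.47 with DMSO, a difference of 1.63 ± 0.16 log2 units (SE, n = 3, limma adjusted p = 1.93e-09), or 3.10-fold. At day 3 it had 3.28, 3.55 and 3.75 with EED226 and 2.70, 3.12 and 3.60 with DMSO, and the groups overlapped (0.39 ± 0.16, adjusted p = 0.119). Without DMSO day 3 replicate 3 that difference was 0.62 (adjusted p = 0.00652). Like BCL2A1, BIK lay below the lowest array median in all arrays at 0 h or with DMSO, between 2.70 and 3.68, so the size of its fold is uncertain.

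BCL2L11 encodes BIM, a BH3-only protein that binds all antiapoptotic family members and is spliced into several isoforms. Its 7 probe sets did not move together. At day 6 the brightest, 225606_at, had 10.03, 10.28 and 9.99 with EED226 and 9.77, 9.74 and 9.56 with DMSO, a difference of 0.41 ± 0.08 (SE, n = 3, limma adjusted p = 7.43e-05). At 0 h this probe set had 10.03, 9.92 and 9.97, which overlapped the EED226 day 6 values and lay above all DMSO day 6 values. Of the other probe sets, 4 went the other way. 1553096_s_at, 1558143_a_at, 222343_at and 208536_s_at were lower with EED226 at day 6, with differences between -0.53 and -1.07.

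The BCL2L11 probe sets that were lower had separate groups at day 6, as 51.7% of all genes had on their brightest probe set. 222343_at had 5.44, 5.38 and 5.39 with EED226 and 6.52, 6.80 and 6.09 with DMSO at day 6 (-1.07 ± 0.14, SE, n = 3, limma adjusted p = 3.98e-07). 1553096_s_at had 7.74, 7.09 and 7.23 with EED226 and 8.33, 8.41 and 7.89 with DMSO (-0.86 ± 0.12, adjusted p = 1.03e-06). 208536_s_at had 4.45, 4.42 and 4.25 with EED226 and 5.69, 5.82 and 4.80 with DMSO (-1.07 ± 0.19, adjusted p = 2.66e-05). At day 3, 222343_at was already lower, at -0.66 ± 0.14 (adjusted p = 0.00132), and 1558143_a_at had -0.48 ± 0.11 (adjusted p = 0.00186), while 225606_at had 0.15 ± 0.08 (adjusted p = 0.235).

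At day 2 no BCL2L11 probe set passed, but with the replicate number as a block over all arrays, 1558143_a_at (-0.35, adjusted p = 0.0127) and 222343_at (-0.45, adjusted p = 0.0149) did. The calls of the other two probe sets changed with the setting. 1555372_at was higher at day 6, at 0.40 ± 0.14 (adjusted p = 0.0236), and this call was lost with the ACTB covariate (0.01, adjusted p = 0.981). 1553088_a_at had -0.30 ± 0.16 (adjusted p = 0.131), which passed without DMSO day 6 replicate 3 (-0.49, adjusted p = 0.0129). The mean of all 7 probe sets was lower with EED226, at -0.43 (adjusted p = 1.53e-04) at day 6 and -0.32 (adjusted p = 0.00755) at day 3, so the sign for BCL2L11 depends on which probe set is read. With the GAPDH covariate none of the 7 probe sets passed at day 6, with differences between -0.92 and 0.12. The positions of the probes in the isoforms were not used here.

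**Figure D3:**
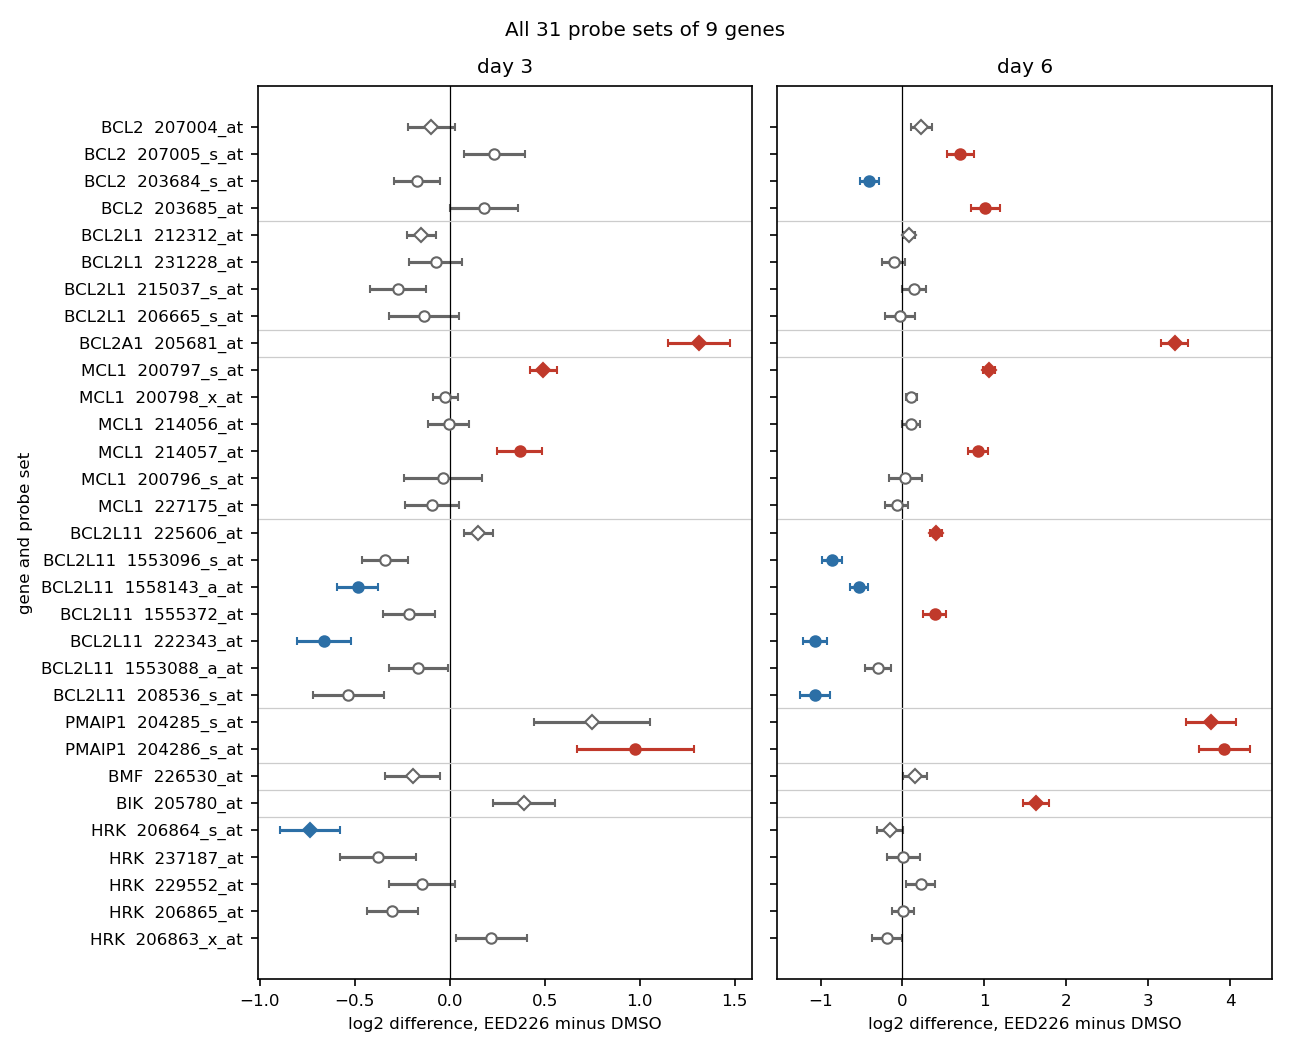
Log2 difference, EED226 minus DMSO (horizontal axis), of all 31 probe sets of the 9 genes at day 3 (left) and day 6 (right), with bars for the limma SE, diamonds for each gene's brightest probe set, and filled red or blue points for differences above or below 0 with an adjusted p under 0.05. At day 6, 10 probe sets are higher, 5 lower and 16 not called, and BCL2 and BCL2L11 have called probe sets on both sides of 0.

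Of all 31 probe sets, 10 were higher and 5 lower at day 6, where 20.2% and 20.6% of all probe sets were. The 5 lower ones were 4 of BCL2L11 and 1 of BCL2. HRK (Harakiri), known as a gene silenced in several tumours, passed at day 3 only. It had 4.95, 4.65 and 4.83 with EED226 and 5.30, 5.29 and 6.04 with DMSO at day 3, a difference of -0.74 ± 0.16 (SE, n = 3, limma adjusted p = 0.00119). The DMSO array at 6.04 is the same replicate 3 that stood apart for PMAIP1, and without it the difference was -0.49 (adjusted p = 0.0202). None of the 5 HRK probe sets passed at day 6, with differences between -0.19 and 0.22, and the mean of its probe sets did not pass at day 3 (-0.27, adjusted p = 0.0654). BMF, a BH3-only protein tethered to myosin motors, had 5.00, 5.51 and 5.36 with EED226 and 4.90, 5.02 and 5.48 with DMSO at day 6, and its difference of 0.16 ± 0.15 did not pass (adjusted p = 0.411). It was 0.33 without DMSO day 6 replicate 3 (adjusted p = 0.0829), and with array weights it passed (0.33, adjusted p = 0.0491).

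The change between days 3 and 6 was tested as a difference of differences. It passed for 4 of the 9 genes, PMAIP1 (3.01 ± 0.43), BCL2A1 (2.01 ± 0.23), BIK (1.24 ± 0.23) and MCL1 (0.56 ± 0.10), each growing later, against 22.2% of all genes. Between days 1 and 2 and between days 2 and 3, 0 of 9 genes passed limma's test, where 0.359% and 0.349% of all genes did. With the GAPDH covariate the MCL1 value no longer passed (0.45, adjusted p = 0.0529). The day 6 minus day 3 value of PMAIP1 contains the DMSO day 3 array that stood apart.

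In DMSO alone, 0 of 9 genes differed between day 6 and 0 h in limma's test, against 1.11% of all genes. The largest differences relative to their SE were those of MCL1, 0.25 ± 0.07 higher at day 6 (adjusted p = 0.0838), and BCL2L11, at -0.28 ± 0.08 (adjusted p = 0.0896). For both, the 3 DMSO day 6 values did not overlap those at 0 h, but the share of all genes for which this holds was not computed. The MCL1 levels were 11.41, 11.41 and 11.34 with DMSO at day 6 and 11.06, 11.16 and 11.19 at 0 h.

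By their group means, the members' levels followed different courses with EED226. For PMAIP1 the order of the EED226 means was day 6 (11.85), day 3 (9.59), day 2 (8.91), day 1 (8.58) and 8 h (8.53), and the arrays of day 1 and 8 h overlapped. The PMAIP1 means with DMSO or at 0 h lay between 7.93 and 8.84, the highest being DMSO day 3, whose SD was 1.20. For MCL1 the EED226 mean was highest at day 6, then at days 3 and 2, and the EED226 day 2 arrays overlapped those of DMSO at the same time. BCL2A1 was highest at day 6 (5.88), then day 3 (3.79) and day 2 (2.88) of EED226, and its other group means lay between 2.38 and 2.70. BIK stood out only at day 6, at 5.18, with all other group means between 3.14 and 3.55. Genes whose group means over the 11 groups followed a member most closely were taken by Pearson's r, as a description without a test, since the groups share time and treatment. For BCL2A1 these were GBP1, SAT1 and SH3GLB1, each with r = 0.994, out of 18 genes with r over 0.99. For MCL1 they were ZNF106 (r = 0.996), NT5C2 (0.996) and CD55 (0.993), out of 10 genes with r over 0.99. For PMAIP1 they were REM2 (0.988), RBM41 (0.987) and MAP2K4 (0.987). GBP1, an interferon-inducible GTPase, had means of 5.56 with EED226 and 2.89 with DMSO at day 6, and CD55, a complement regulator, had 9.91 and 8.80.

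**Figure D4:**
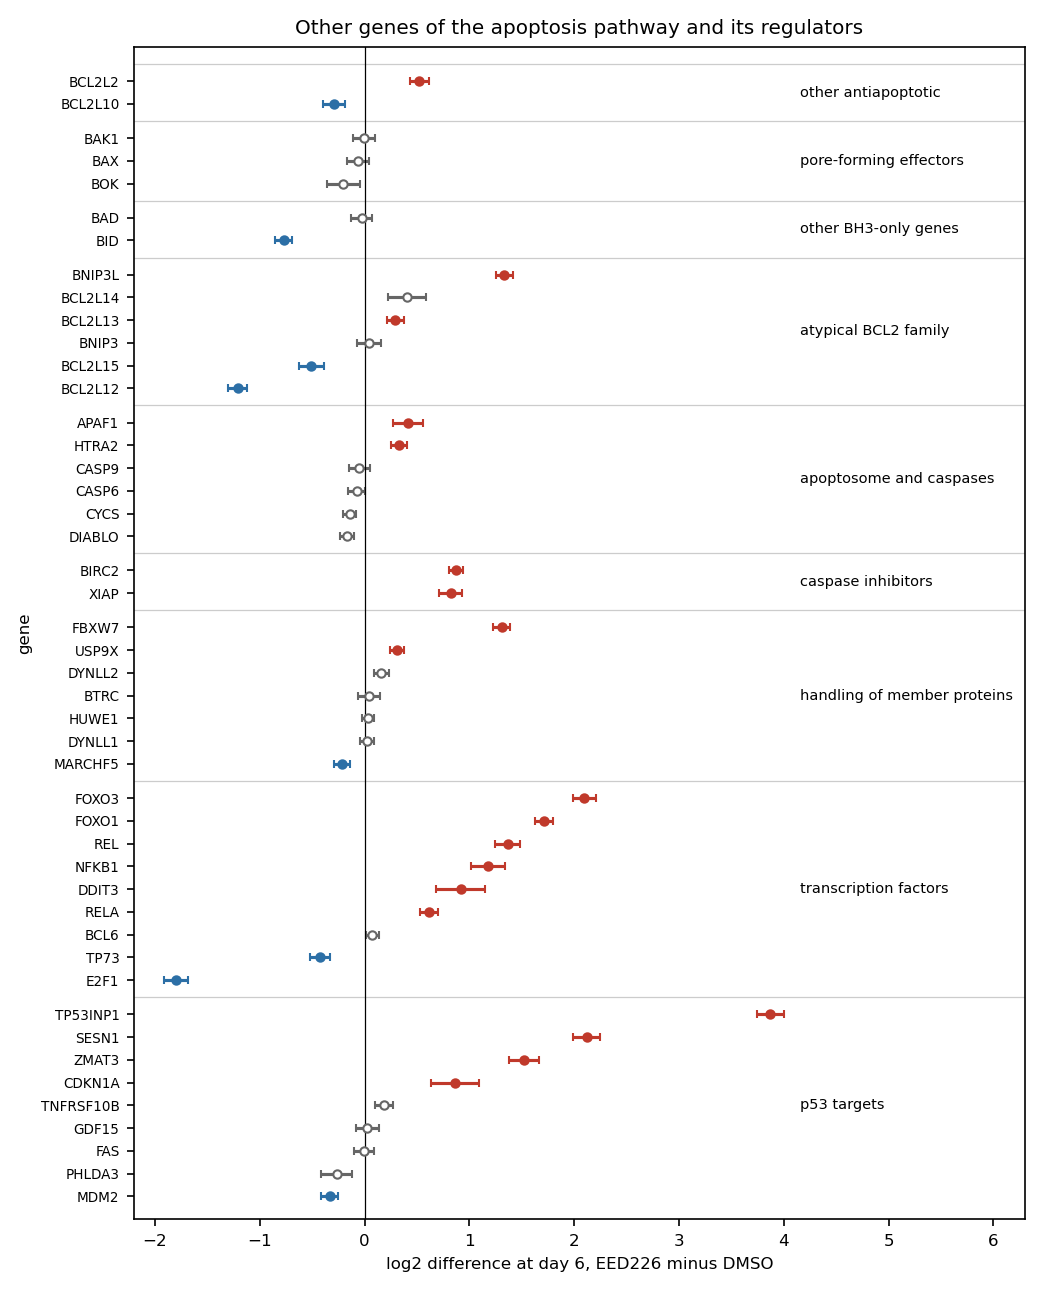
Log2 difference at day 6, EED226 minus DMSO (horizontal axis), of the brightest probe set of 46 other genes of the apoptosis pathway and its regulators (vertical axis, grouped by list), with bars for the limma SE and filled red or blue points for differences above or below 0 with an adjusted p under 0.05. The pore-forming effectors BAK1, BAX and BOK lie near 0, FOXO1 and FOXO3 lie to the right at 1.71 and 2.10, and E2F1 lies to the left at -1.80.

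The partners of the members were followed in lists of known pathway genes, whose counts at day 6 stand beside the 23.1% of all genes that were higher and the 25.5% that were lower. These lists were chosen with earlier results of these data known, so their counts are a description and not a test. The pore-forming effectors did not pass at day 6, 0 of 3. BAX had 8.50, 8.89 and 8.72 with EED226 and 8.77, 8.90 and 8.62 with DMSO (-0.06 ± 0.10, SE, n = 3, limma adjusted p = 0.668). BAK1 had 6.92, 6.96 and 6.93 with EED226 and 6.98, 7.13 and 6.71 with DMSO, and BOK, a related effector, differed by -0.21 ± 0.16 (adjusted p = 0.314). Of the other BH3-only genes, BID, which links death receptors to mitochondria, fell to 8.87, 9.19 and 9.11 with EED226, against 9.92, 9.94 and 9.62 with DMSO (-0.77 ± 0.08, adjusted p = 6.88e-09). BAD, regulated by phosphorylation, did not pass (-0.03 ± 0.10, adjusted p = 0.845). Of the other antiapoptotic genes, BCL2L2, which encodes BCL-w, was higher by 0.52 ± 0.09 (adjusted p = 1.73e-05), while its second probe set had the opposite sign, and BCL2L10 was lower (-0.30 ± 0.11, adjusted p = 0.0254).

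Of 6 atypical family genes, 2 were higher and 2 lower at day 6, against 23.1% and 25.5% of all genes. BNIP3L, a mitophagy receptor, was higher by 1.33 ± 0.08 (SE, n = 3, limma adjusted p = 2.03e-13), and BCL2L12 was lower, at -1.21 ± 0.09 (adjusted p = 4e-12). Of 6 measured genes of the apoptosome and caspase step, of 8 listed, 2 were higher and none lower, beside the same shares. These were HTRA2, a mitochondrial protease (0.33 ± 0.08, adjusted p = 8.54e-04), and APAF1, the apoptosome scaffold (0.41 ± 0.15, adjusted p = 0.0237). Both of APAF1's further probe sets had differences of the opposite sign. Both measured caspase inhibitors, of 3 listed, were higher, where 23.1% of all genes were. BIRC2 had 11.61, 11.61 and 11.62 with EED226 and 10.69, 10.75 and 10.77 with DMSO (0.87 ± 0.07, adjusted p = 8.03e-12), and XIAP, which binds caspases directly, had 10.04, 10.05 and 10.13 with EED226 and 9.29, 9.34 and 9.12 with DMSO (0.82 ± 0.11, adjusted p = 5.88e-07). Of XIAP's 6 other probe sets, 2 had differences of the opposite sign.

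Among 7 genes that act on the member proteins, 2 were higher and 1 lower, again against 23.1% and 25.5% of all genes. FBXW7, a ubiquitin ligase subunit that targets MCL1, was higher by 1.31 ± 0.08 (SE, n = 3, limma adjusted p = 2.2e-13), and USP9X, a deubiquitinase that stabilises MCL1, by 0.31 ± 0.07 (adjusted p = 7.22e-04). Of USP9X's 3 other probe sets, 1 had a difference of the opposite sign. Of 9 measured transcription factors known to act on members, of 10 listed, 6 were higher and 2 lower, against 23.1% and 25.5% of all genes. FOXO1 had 10.13, 10.06 and 9.88 with EED226 and 8.38, 8.45 and 8.11 with DMSO, and FOXO3 had 10.40, 10.55 and 10.18 with EED226 and 8.35, 8.49 and 8.002 with DMSO. Both are forkhead factors known to act on BCL2L11, and they differed by 1.71 ± 0.09 (adjusted p = 1.75e-15) and 2.10 ± 0.11 (adjusted p = 5.06e-15). The NF-kB subunits, of a factor known to act on BCL2A1 and named here after their values were seen, were also higher. REL had 9.61, 9.93 and 9.60 with EED226 and 8.33, 8.52 and 8.19 with DMSO at day 6 (1.36 ± 0.12, SE, n = 3, limma adjusted p = 1.22e-10), NFKB1 differed by 1.18 ± 0.16 (adjusted p = 7.13e-07) and RELA by 0.62 ± 0.09 (adjusted p = 9.48e-07). BCL6, the germinal centre repressor, did not pass (0.07 ± 0.06, adjusted p = 0.37). E2F1, chosen after its values were seen, was lower, at -1.80 ± 0.11 (adjusted p = 1.56e-13).

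DDIT3 encodes CHOP, a stress-induced factor that acts on several BH3-only genes, and it too was chosen after its values were seen. It had 8.91, 8.96 and 8.79 with EED226 and 8.11, 8.06 and 7.74 with DMSO at day 6 (0.91 ± 0.23, SE, n = 3, limma adjusted p = 0.00232). At day 3 it had 8.06, 7.96 and 8.05 with EED226 and 8.24, 8.09 and 9.86 with DMSO, the last being the replicate 3 that stood apart for PMAIP1 and HRK. With that array included, DDIT3 was called lower at day 3 (-0.70, limma adjusted p = 0.0417), opposite in sign to day 6. Of 9 measured p53 target genes, of 10 listed, 4 were higher and 1 lower at day 6, where 48.6% of all genes passed in either direction. TP53INP1 was higher by 3.87 ± 0.13 (adjusted p = 5.69e-19), although its 2 further probe sets had differences of the opposite sign, and SESN1, a stress-induced sestrin, by 2.12 ± 0.13 (adjusted p = 6.55e-14). The median difference was 0.91 for the transcription factors and 0.18 for the p53 targets, beside -0.11 for all genes.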

How the data were processed

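Total RNA of 33 Karpas422 samples was labelled with a 3' IVT kit and hybridised to 1 Affymetrix array each, per the labels' protocols. The data are the deposited log2 values, 1 per probe set and array. They come from RMA, per the submitters' processing notes, a method that includes background correction and quantile normalization. The arrays' 75th percentiles still differed at day 6. They were 6.10 on DMSO replicate 3, 6.53 and 6.55 on the other DMSO arrays, and 6.68 to 6.74 on the EED226 arrays. No RMA version is given in the sources used here. Values made from 3' labelling depend on RNA integrity, and the number of arrays limits the precision.

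Of 54675 probe sets, 62 controls were left out and 54613 tested. In GEO's platform annotation 41091 of these had 1 symbol, 1801 had several and 11721 had none here, which gave 19775 genes. For each gene the probe set with the highest mean of the 33 arrays was used, and since EED226 arrays enter that mean, probe sets that rose may be favoured.

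The model was limma 3.58.1 under R 4.3.3, with a mean for each of the 11 groups, moderated variances and two-sided tests on 22 residual degrees of freedom, and p-values were adjusted by Benjamini-Hochberg over the 54613 probe sets of a comparison. EED226 was compared with DMSO at 5 times, jointly over these times, and between successive times, and DMSO day 6 with 0 h. Levels carry the SD of 3 arrays and differences the limma SE. Alternatives were 1 probe set per gene, a gene's probe sets averaged, centred array medians, repeated quantile normalization, a filter on dim probe sets (above a median level of 4.09), trended and robust eBayes, array weights, fitting only the arrays compared, a replicate block, leaving out each array, and, chosen after seeing the data, the ACTB or GAPDH 3' minus 5' difference as a covariate.

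Same-numbered EED226 and DMSO arrays deviated together from their group means at 8 h (r between 0.199 and 0.318), day 1 (0.110 to 0.358) and day 2 (0.151 to 0.169), so the replicate numbers of the titles pair the samples at these times. Pairing was not clear at day 3 (-0.009 to 0.233) and day 6 (0.046 to 0.126). There, some arrays followed another number more closely than their own. The replicate block is a single effect of each number over all arrays.

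The members and gene lists were chosen with earlier results of these data known. The text names every member, the 2 genes of each other list with the smallest p at day 6, BAX, BAK1, BID, APAF1, FOXO1, FOXO3 and BCL6, and for the 3 members with the smallest F test p the 3 genes most like them. E2F1, DDIT3, REL, NFKB1 and RELA fall outside this rule. A simulated day 6 comparison over 54613 probe sets recovered 42% of log2 changes of size 0.5, 96% at size 1 and 100% at size 2, with 11 false calls. Only 50, 100 and 50 probe sets were changed at these sizes, against 22268 called in the real comparison. The Benjamini-Hochberg cutoff depends on that number, so these shares do not describe recovery in the real data. Promoter sequences come from RefSeq's table for GRCh38.p14, in which 8 of the 10 genes were found.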

Additional observations from a re-analysis of the deposited data

Results flagged for a closer look

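The difference between EED226 and DMSO at day 6 differed from that at day 3 for 4 members, by limma's test of the difference itself over all probe sets. The day 6 minus day 3 value was 2.01 ± 0.23 log2 units for BCL2A1 (SE, adjusted p = 3.84e-07), 3.01 ± 0.43 for PMAIP1 (adjusted p = 9.57e-06), 0.56 ± 0.10 for MCL1 (adjusted p = 1.27e-04) and 1.24 ± 0.23 for BIK (adjusted p = 2.47e-04). With the mean of its probe sets the MCL1 value was 0.24 (adjusted p = 0.116).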

How the results depend on the processing

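Centring array medians changed no call among 279 member results, and the median of all genes at day 6 was -0.11 as deposited and -0.10 when centred or quantile normalized again. Repeated quantile normalization kept 267 of the 279 calls the same, lost 3 and added 9. A call on the other side of 0 arose for BCL2L11 with the mean of its probe sets, -0.32 at day 3 and -0.43 at day 6, where its probe sets disagree. With the GAPDH covariate the called values of 1555372_at at day 6 (-0.35) and of 1553096_s_at for day 6 minus day 3 (0.011) also turned and did not pass, and uncalled values near 0 changed sign under several settings. The number of members called at day 6 was 5, and 3 of the 7 genes left above the median level, since BCL2A1 and BIK are removed there. It was 6 with array weights (BMF added), 6 with the mean of probe sets (BCL2 added, BCL2L11 lower), and 4 with the GAPDH covariate, with which 4 were called over all times and 3 for day 6 minus day 3. At day 3 it was 3, and 5 with array weights, where PMAIP1 and BIK were added. With the mean of probe sets the genes called at day 3 changed. MCL1 (0.12, limma adjusted p = 0.356) and HRK (-0.27, adjusted p = 0.0654) were lost. PMAIP1 was called higher (0.86, adjusted p = 0.0393) and BCL2L11 lower (-0.32, adjusted p = 0.00755). At day 2 the number called was 0. It was 1 with 1 probe set per gene, the dim filter, array weights or the ACTB covariate, and 2 with only the arrays compared. For day 3 minus day 2 it was 0, but 1 with 1 probe set per gene, the dim filter, trended eBayes or array weights. For DMSO day 6 against 0 h it was 0, but 2 with 1 probe set per gene, the dim filter or trended eBayes, and 1 with the mean of probe sets, repeated quantile normalization, array weights or the replicate block. Leaving out 1 array at a time gave 0 to 0 at 8 h and on days 1 and 2, 3 to 5 at day 3, 5 to 6 at day 6, 6 to 6 over all times, 0 to 0 for day 2 minus day 1, 0 to 1 for day 3 minus day 2, 4 to 5 for day 6 minus day 3 and 0 to 0 for DMSO day 6 against 0 h. The 5 at day 3 arose without DMSO replicate 3. With the replicate block at day 3, where the pairing was not clear, 1553096_s_at (-0.34, adjusted p = 0.0412) and 208536_s_at (-0.53, adjusted p = 0.0108) of BCL2L11 passed, and for DMSO day 6 against 0 h MCL1 passed (0.25, adjusted p = 0.0387). Dim probe sets limit BCL2A1, BIK and 203684_s_at and 203685_at of BCL2. The causes were not tested.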

Other observations

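On DMSO day 3 replicate 3, 24 genes lay at least 1 log2 unit from both other arrays of the group, and PMAIP1, at 10.23 against 8.17 and 8.13, and DDIT3, at 9.86 against 8.24 and 8.09, were among those set apart. HRK was also highest there, at 6.04 against 5.30 and 5.29.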
